A study of Mus musculus with 12 samples.

Results

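The genes described here belong to 9 families named for the motile cilium and the sperm tail: axonemal dynein heavy, intermediate and light chains, dynein assembly factors, cilia and flagella associated proteins, radial spoke head proteins, tektins, sperm associated antigens and intraflagellar transport proteins. Members were all m6A peaks whose assigned gene name began with Dnah, Dnai or Dnaic, Dnaaf, Cfap, Rsph, Tekt, Spag or Ift and then a digit, or with Dnal and then a digit or the letter i. They made up 78 of 27292 peaks in the list of the OVA mice and 86 of 26102 peaks in the list of the PBS mice. These peaks carried 43 OVA gene names and 50 PBS gene names, 53 in either list, of 15332 gene names with a peak in either list.

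The lungs came from female BALB/c mice aged 6 to 8 weeks, with 3 animals in each group. OVA mice, a model of acute allergic asthma, were sensitized by injection of ovalbumin with alum on days 0 and 7. They inhaled an aerosol of 3% ovalbumin from day 14 to day 20. PBS mice, the controls, were injected with PBS alone, without alum, and inhaled PBS on the same days. In the paper's protocol, a methacholine test of the airways on day 21 came before the collection of lavage fluid and lungs. Lungs were taken on day 21 as whole tissue, so airway epithelium was sequenced together with alveolar, vascular and immune cells. Each mouse gave 1 library of RNA fragments bound by an antibody to m6A (IP) and 1 library of the same RNA without pull-down (input), 12 libraries in all. m6A is a methyl group on adenosine inside an RNA, and a peak is an exonic stretch with more IP than input reads. There was 1 peak list per group, without values of single mice, so no difference between the lists has a replicate check. The lists hold no read counts, and the depth behind a peak is unknown.

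Motile cilia cover the multiciliated cells of the airway and beat to move mucus toward the throat. Each has an axoneme, a ring of microtubule doublets around a central pair. Dynein arms on the doublets drive the bending, radial spokes and the central pair regulate it, tektins lie inside the doublets, assembly factors build the dyneins in the cytoplasm, and intraflagellar transport carries parts along the cilium. Inherited loss of many of these proteins causes primary ciliary dyskinesia, in which mucus clearance fails.

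The family names were checked against the gene annotation in the lists. A term for cilium, axoneme, flagellum or dynein was attached to 45 of the 53 genes. The 8 without one were Cfap161, Cfap97, Rsph10b, Spag5, Spag7, Spag9 and the antisense RNAs Dnah2os and Spag17os. Spag5 is a protein of the mitotic spindle and Spag9 a scaffold of kinase signalling, so the label does not hold for every member. None of 9 male germ cell markers had a peak in either list, but the mice were female, so this does not bear on the label.

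Markers of lung cells were compared by whether they carried a peak, which does not measure their expression. Of 10 markers of multiciliated cells, 6 had an OVA peak and 7 a PBS peak. Of 6 club cell markers, 5 and 4 had one, and of 6 goblet cell markers, 5 and 4. The club cell gene Cyp2f2 and the goblet cell gene Clca1 made these differences, each with a peak in the OVA list only. Alveolar type 2 markers gave 4 of 6 in both lists, alveolar type 1 markers 5 of 6 in both, and none of 4 basal cell markers had a peak. The goblet cell markers called in both lists had lower log10 p in the OVA list. The lowest values were -461 (OVA) and -6.13 (PBS) for the mucin Muc5ac and -1510 and -227 for Muc5b. For Spdef they were -49.5 and -6.02, for Foxa3 -56.7 and -4.5, and for the OVA peak of Clca1 -999. Agr2 had no peak. Fold enrichment did not follow, since the highest called value was higher for PBS in Muc5ac (10 and 20.7) and Muc5b (7.33 and 10.9) and higher for OVA in Spdef (22.5 and 8.55) and Foxa3 (27.7 and 15.8). The 6 multiciliated and the 3 club cell markers called in both lists had the lower log10 p in the PBS list. So did 4 of 6 alveolar type 1 markers, while all 5 alveolar type 2 markers had it in the OVA list. The highest called fold enrichment was higher for OVA in 4 multiciliated and all 3 club cell markers, and for PBS in 2 multiciliated ones. In wider sets of cilia genes log10 p went both ways. Of the 40 family genes called in both lists, it was lower for OVA in 21 and for PBS in 19. For 39 motile cilia genes outside the families these counts were 15 and 24. Over all 12267 genes called in both lists log10 p was lower for OVA in 7496 and for PBS in 4721. The lists do not measure cell composition, and its part in the results below was not tested. The lists hold no amount of any RNA, so no loss of RNA was measured. In whole lung, fewer ciliated cells and less of an RNA per cell could not be told apart from them.

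Before the single genes, the 2 gene identifiers of a peak have to be kept apart. The peak caller tests the exons of 1 gene, and the annotation step then assigns the peak to a gene, which need not be the same one. Of the members, 21 of 78 OVA peaks and 24 of 86 PBS peaks had been called on another gene than the assigned one. This is 26.9% (95% Wilson interval 18.3 to 37.7) and 27.9% (19.5 to 38.2), against 22.5% of all OVA and 22.8% of all PBS peaks. Many of the strongest members were of this kind. The peak assigned to Cfap298, which is needed to assemble dynein arms, had the lowest log10 p of all members, -528 in the OVA and -530 in the PBS list, at fold enrichments of 10.7 and 11.2, but it was called on Synj1, at chr16:90938127-90938936 (GRCm38) in the OVA list. The log10 p of -512 of Cfap53 in the OVA list belonged to a peak called on Mbd1. Both Dnaaf4 peaks of each list lay in Pygo1, both Dnah10 peaks of the OVA list and all 3 of the PBS list were called on Atp6v0a2, and the highest OVA peak of Dnal1, at 14.5, was called on Acot6. Peaks called on another gene had a median log10 p of -34.6 in the OVA list, those called on the assigned family gene -7.63. In the PBS list the medians were -18.8 and -6.84. Over all peaks they were -31.5 and -22 (OVA) and -27.9 and -19.6 (PBS), in the same order, so the members called on their own gene were weakly supported beside such peaks of all genes.

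**Figure D1:**
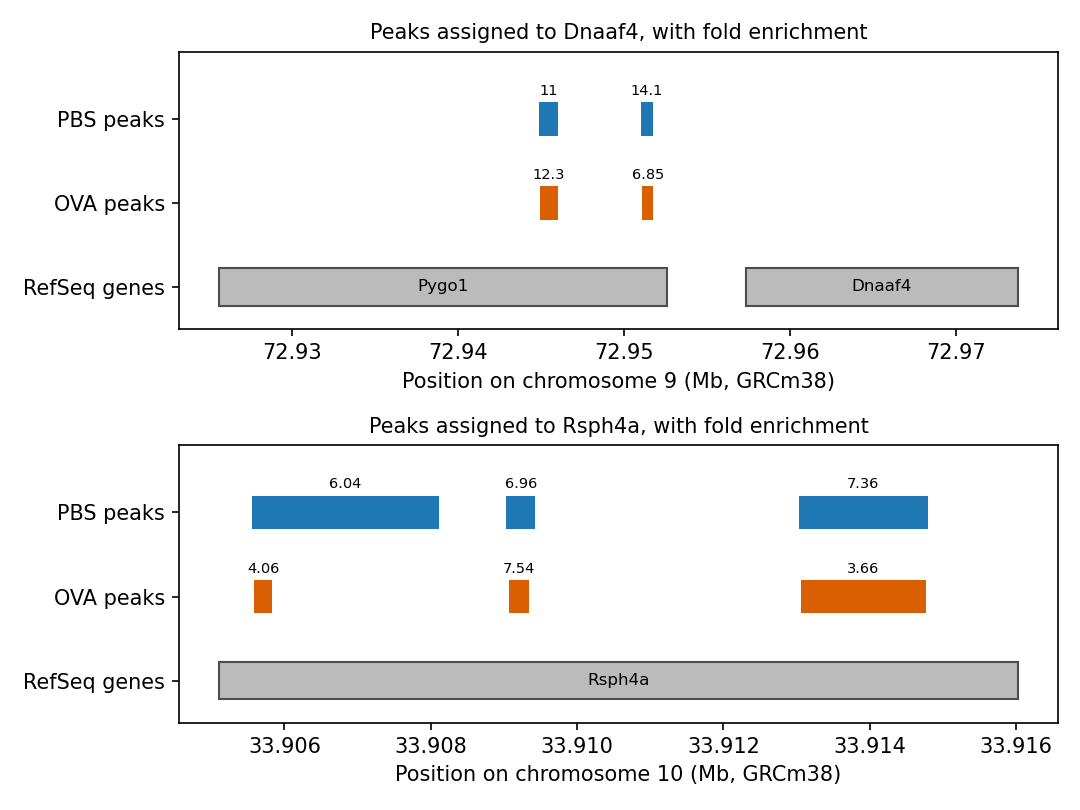
Peaks assigned to Dnaaf4 (top) and Rsph4a (bottom) in both lists, drawn to scale from first to last base along the chromosome (x axis, Mb, GRCm38), with the RefSeq gene spans in grey and the fold enrichment of IP over input above each peak. The Dnaaf4 peaks lie within Pygo1, whereas the 3 Rsph4a peaks of each list lie within Rsph4a; a peak of several exonic blocks is drawn across its introns.

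The opposite case also occurred. Among OVA peaks 14, and among PBS peaks 21, were called on a gene of the families but assigned to a neighbour. Through them, 12 further family genes had a peak. Dnaaf1 and Dnaaf3, both required to assemble the outer and inner dynein arms, carried no assigned peak, yet 2 peaks in each list were called on Dnaaf1 and listed under Adad2, with fold enrichments of 8.73 and 6.61 in the OVA and 3.77 and 5.95 in the PBS list. The Dnaaf3 peak, listed under Tnni3, stood at 24.6 for OVA with a log10 p of -22.4 and at 2.75 for PBS with -13.6. Dnaaf2 gained 2 OVA peaks and 3 PBS peaks in this way. Its main peak, under the name Gm49383, spanned chr12:69192939-69197079 in the OVA list, with a fold enrichment of 12 and a log10 p of -146 (PBS list, 9.84 and -78.2). Counted by the gene on which the peak was called, 44 family genes had a peak in the OVA and 57 in the PBS list.

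By role, the dynein heavy chains held the most peaks of the motor subunits, with 20 OVA peaks on 12 gene names and 26 PBS peaks on 13. Of these, 16 and 20 had been called on the assigned gene. The heavy chain is the motor itself, and its transcripts are very long. Of the peaks called on the assigned gene, 11 of 16 in the OVA list lay in exons outside the UTRs (68.8%, 95% Wilson interval 44.4 to 85.8) and 14 of 20 for PBS (70%, 48.1 to 85.5). These counts include 1 peak of the antisense RNA Dnah2os in each list. Over all peaks called on the assigned gene the shares were 39% and 38.9%. Dnah2, a heavy chain of the inner arms, had a peak in exon 41 of 85 at chr11:69464733-69465094 with fold enrichments of 14.1 (OVA) and 29.1 (PBS), the latter the highest PBS value of all members. Dnah17 had a peak in exon 54 of 81 with nearly equal values, 16.4 and 16.3. Both were weakly supported for their height, with a log10 p of -7.59 and -9.15 for Dnah2 and of -4.68 and -4.67 for Dnah17, while the median of all peaks was -24 and -21.4.

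Dnah7a, Dnah7b and Dnah7c, near-identical inner arm genes on chromosome 1, carried a peak at the matching place, exon 18 of 66 in the first and second and exon 17 of 65 in Dnah7c. The fold enrichments in the OVA list were 6.91, 4.11 and 6.4, and those in the PBS list 5.63, 2.73 and 6.78. Reads can fit more than 1 of these copies, so the values of the 3 genes are uncertain. Dnah7c had a further peak in exon 41 at 25.7 in the OVA and 5.13 in the PBS list. In the PBS list Dnah7b had 4 peaks, and those in exon 42 (7.73) and exon 50 (15.3) had no overlapping OVA peak.

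The other heavy chains of the outer arm, to which Dnah17 also belongs, covered a wide range of values. Dnah5, the one most often mutated in ciliary dyskinesia, had a peak over the last exons at 1.65 in the OVA and 2.33 in the PBS list, and a second one in the OVA 3′ UTR at 1.81. Dnah9 had a peak in exon 20 of 69 at 11 and 6.6, and Dnah11 in exon 14 of 82 at 5.13 and 3.01. The Dnah9 peak of 15.8 in the PBS list was called on Shisa6. A PBS peak at the 5′ end of Dnah9, at 5.92, coincided with one at 6.42 called on Gm12296, so 1 stretch of RNA was listed under 2 gene models.

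Similar overlaps touched other heavy chains. Dnah3, an inner arm chain, had 4 peaks in each list, all in the 3′ UTR, and its strongest one (6.32 in the OVA, 11.1 in the PBS list) lay within 14 bp of a peak called on Lyrm1 (6.39 and 10.6). Dnah2os, antisense to Dnah2, had a peak at 5.66 and 5.53, and a Dnah2 peak in exon 52 of the PBS list (3.69) overlapped it. The libraries kept the strand of the RNA, but whether peaks were called by strand is not given in the sources used here, so the lists do not tell these pairs apart. Dnah6 had a peak at its 5′ end in both lists, with the same first and last base, at 2.15 and 2.46. Dnah12 had a peak in the PBS list only, in exon 17 of 74, at 2.02. Dnah8 was listed only by a peak called on it in the OVA list under the name Gm9937, at 2.87. This peak had a log10 p of -17.6 and no overlapping PBS peak. Neither list had a peak of Dnah1 or Dnah14.

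Of the intermediate chains, which anchor the outer arm, Dnaic2 was listed and Dnaic1 was not. Dnaic2 had 4 peaks in the OVA list, of which 2 were called on Ttyh2. Its own 3′ UTR peak had a fold enrichment of 4.25 in the OVA and 5.49 in the PBS list, and its 5′ end peak (3.68) was in the OVA list only. The light chain Dnal1 binds the heavy chain of the outer arm and had 5 OVA and 4 PBS peaks, 2 in each list called on Acot6. Its own 3′ UTR held 2 OVA peaks, at 2.91 and 8.01, where the PBS list had a single peak of 4.19 across both. A PBS peak further upstream in the 3′ UTR (1.59) and an OVA peak in exon 5 (2.05) had no counterpart. Dnal4 had a 3′ UTR peak at 4.44 and 3.76, and Dnali1, an inner arm light chain, an exonic one at 2.22 and 2.55. Over the 3 genes both lists gave a peak for the same names.

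The assembly factor Dnaaf2 had a peak at its start in both lists, at 3.1 for OVA and 2.73 for PBS. In the PBS list the same start also held a peak of 1.72 and one of 3.03 that was called on the overlapping gene 9330151L19Rik. The OVA list had a peak of that gene at the same place, under its own name, at 3.13. Dnaaf5 had a peak of 61 bp at its 5′ end in the OVA list only, with a fold enrichment of 4.11 and a log10 p of -5.95. Dnaaf6 was in neither list. Spag1, an assembly factor with another family name, had a peak in the PBS list only, at 3.08 and a log10 p of -2.39.

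The Cfap family had the most RefSeq genes, with 23 OVA peaks on 11 gene names and 22 PBS peaks on 14. Of 34 RefSeq genes of this family, 14 had an assigned peak. Cfap97 had the highest OVA fold enrichment of all members, 31.1 in exon 2 at chr8:46169723-46170744 with a log10 p of -130, and a second peak over the following exons at 5.52. In the PBS list the same stretch was a single peak of 4 blocks at 8.55 and -112, so the 2 values describe different lengths of RNA, 1022 and 1653 bp. Cfap44, a protein needed for sperm tail movement, had its main peak in the 3′ UTR at chr16:44481320-44482308, at 14.7 with a log10 p of -166 for OVA and at 12.3 with -201 for PBS. Cfap65 had an exonic peak at 3.49 and 3.1 with log10 p of -94.3 and -93.8, and an OVA peak without a counterpart at 1.56 with a log10 p of -3.75. By log10 p, the shared peaks of these 3 genes were the strongest that were both called on and assigned to a Cfap gene.

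Several other genes of the family had peaks. Cfap69 had 4 OVA peaks, but 3 were called on Steap2, and its own, in exon 20 of 23, stood at 3.22 and 2.26. Cfap157 also had 4 OVA peaks. A peak at its 5′ end was shared at 4.36 and 5.84. Cfap36 and Cfap46 had peaks at the 5′ end with near values in both lists, 3.64 and 3.45 for Cfap36 and 2.47 and 2.38 for Cfap46. A further peak called on Cfap46 was listed under Gm4459, at 34.4 with a log10 p of -12.4 for OVA and at 13.3 with -3.96 for PBS. Cfap20 had a 3′ UTR peak at 3.4 and 2.71, and Cfap161 one at 2.34 and 3.08. For Cfap53 the peaks called on the gene itself did not overlap between the lists, with 4.49 in the OVA list and 11.4 and 2.29 in the PBS list.

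The radial spoke heads touch the central pair. Rsph4a had 3 peaks in each list, all called on it and all overlapping between the lists. In exon 1 the fold enrichment was 4.06 in the OVA and 6.04 in the PBS list, in exon 3 it was 7.54 and 6.96, and at the 3′ end 3.66 and 7.36. The log10 p of the last was -26.8 and -72.2. Rsph3a and Rsph3b are near-identical copies on chromosome 17. The Rsph3b peak (4.78 and 2.53) was called on Gm49719, and the Rsph3a peak, in the OVA list only at 2.08, on E430024P14Rik. Of the 4 Rsph10b peaks over both lists 1 was called on Rsph10b itself. Rsph1 and Rsph9 had no peak in either list.

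Among the tektins, 1 OVA peak and 5 PBS peaks were listed. Tekt1 had a 5′ end peak in both, at 2.89 and 2.33. Tekt3 had a peak in exon 2 of 8 in the PBS list only, at chr11:63070416-63070565, with a fold enrichment of 16.8 at a log10 p of -4.83. Tekt4 had 2 PBS peaks, the first of 778 exonic bp from the 5′ end at chr17:25471602-25473858, with a fold enrichment of 3.7 and the lowest log10 p, -14.7, of all members without a counterpart. Its second, in exon 4 of 6, stood at 1.71. The peak of Tekt2 in the PBS list was called on Ago3, whereas peaks called on Tekt2 itself were in both lists under Adprhl2, at 2.27 and 4.64.

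The Spag family mixes axonemal and other proteins. Spag16 and Spag17 are proteins of the central pair. Spag16 had a 3′ UTR peak at 1.9 and 3.29, and Spag17 an exonic one at 2.77 and 5.03. Each also had an OVA peak without a counterpart, at 1.86 for Spag16 and at 5.39 for Spag17. Spag17os had a PBS peak at 9.87. Spag5 had 3 OVA and 2 PBS peaks. Its peak in exon 4 differed most among the overlapping pairs of peaks assigned to the families. It stood at 1.77 in the OVA and 11.8 in the PBS list, at log10 p of -3.63 and -3.22. The pair called on Dnaaf3 but assigned to Tnni3 (24.6 and 2.75) is outside this ranking and differed more. Spag9 was assigned a single peak of low fold enrichment, 1.54 and 1.23, in exon 10 of 29. Its main peak was listed under B230206L02Rik, at 15.9 and 21 with log10 p of -516 and -611. Spag7 had a PBS peak without a counterpart at 2.62 and a log10 p of -7.3.

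Of 14 intraflagellar transport genes in RefSeq, 4 had an assigned peak. Ift140, of the complex for return transport, had 2 OVA peaks, at its 5′ end (2.11) and in the last exon (2.89, log10 p -10.4), and 1 PBS peak in the 3′ UTR (1.88), none of which overlapped. Ift81 had the same exonic peak in both lists, at 2.52 and 1.88. Ift57 had a peak in the OVA list only, at 2.48. The PBS peak under Ift52, at 11.4, was called on Sgk2, and peaks called on Ift52 itself were in both lists under Mybl2, at 4.6 and 3.48.

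No counterpart in the other list, counting 1 bp of exonic overlap, was found for 16 of 78 OVA peaks and 23 of 86 PBS peaks. This is 20.5% (95% Wilson interval 13 to 30.8) against 19.4% of all OVA peaks, and 26.7% (18.5 to 36.9) against 14.5% of all PBS peaks. The OVA share was near the background, and the PBS share was above it. Several peaks come from 1 gene, the intervals cover counting error only, and no test was made. Peaks without a counterpart were weakly supported, with a median log10 p of -3.35 in the OVA and -3.3 in the PBS list, and medians of -4.2 and -3.58 over all such peaks.

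By gene name, 3 members had a peak in the OVA list only and 10 in the PBS list only, of 53. In all, 11.5% of gene names with a peak were in the OVA list only and 7.92% in the PBS list only, so the families had the reverse order. The OVA names were Dnaaf5, Ift57 and Rsph3a. The PBS names were Cfap54, Cfap100, Cfap126, Dnah12, Ift52, Spag1, Spag17os, Tekt2, Tekt3 and Tekt4. As given above, the peaks of Rsph3a, Ift52 and Tekt2 were called on other genes. Of the rest of the PBS names, Cfap54 had a fold enrichment of 3.14, Cfap100 of 2.22 and Cfap126 of 3.45, at log10 p of -5.23, -2.17 and -2.11. Counted by the gene on which the peak was called, 4 family genes were in the OVA list only (Cfap74, Dnaaf5, Dnah8 and Ift57) and 17 in the PBS list only, of 61. The peaks called on Cfap74 and Dnah8 had a log10 p of -3.49 and -17.6. PBS genes not named above were Cfap77 (-1.55), Cfap206 (-2.33), Dnaaf4 (-2.41), Cfap221 (-2.56) and Rsph10b (-3.35). The others were Ift74 (-3.73), Spag6l (-3.88), Ift88 (-6.46) and Spag7 (-7.3). Over all called genes these shares were 10.8% and 7.22%.

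Over the exonic regions, members of the OVA list lay in the 5′ UTR in 11.5% (95% Wilson interval 6.19 to 20.5), in other exons in 44.9% (34.3 to 55.9) and in the 3′ UTR in 43.6% (33.1 to 54.6). All OVA peaks gave 11.6%, 35.7% and 52.7%. Members of the PBS list gave 10.5% (5.6 to 18.7), 41.9% (32 to 52.4) and 47.7% (37.4 to 58.1), and all PBS peaks 11.4%, 35.9% and 52.7%. All these intervals held the values of all peaks. The identifier of the called gene changed the picture. Members called on the assigned family gene lay in the 3′ UTR in 28.1% (18.1 to 40.8) of the OVA and 32.3% (22 to 44.6) of the PBS peaks, and those called on another gene in 85.7% (65.4 to 95) and 87.5% (69 to 95.7). The same split held over all peaks, where the 3′ UTR share was 47% (OVA) and 47.2% (PBS) for peaks called on the assigned gene and 72.3% and 71.5% for the others. Members called on the assigned gene lay in exons outside the UTRs in 56.1% (43.3 to 68.2) and 53.2% (41 to 65.1), against 39% and 38.9% of all peaks called on the assigned gene. For these members the 3′ UTR share was thus below, and the exon share above, that of the matching peaks of all genes, without a test.

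Fold enrichment was compared within each list. Members had a median of 3.88 (quartiles 2.47 and 6.4) in the OVA list, where all peaks had 5.59 (2.91 and 11.4). In the PBS list the median was 3.57 (2.48 and 7.56), and that of all peaks 5.44 (2.86 and 10.9). The median member stood at percentile 36.5 of the OVA and 33.8 of the PBS list. Taken alone, peaks called on the assigned gene had medians of 3.64 and 3.45. Members were also shorter, with a median of 243 exonic bp in the OVA and 211 in the PBS list, against 330 and 328 over all peaks.

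Of the 78 OVA members, 62 overlapped a PBS peak, and their values were set side by side, without replicates and with each list resting on its own libraries. The OVA value was the higher one in 31 pairs and the PBS value in 31, with a median log2 ratio of OVA over PBS of -0.02. Pairs called on the assigned gene divided into 24 and 19 with a median of 0.05, and those called on another gene into 7 and 12 with a median of -0.16. Over all 22009 overlapping OVA peaks the OVA value was higher in 13177 and the PBS value in 8732, with a median of 0.12. Counted by the gene on which the peak was called, 40 family genes were in both lists. Their highest called value was higher for OVA in 25 and for PBS in 15, where all 12267 such genes gave 7393 and 4813. At least 2 times higher in the OVA list were 4 member pairs, where the background was 7.67%, and in the PBS list 6, where it was 6.6%. The 4 included Cfap97, Dnah7c and a Cfap69 peak called on Steap2. The 6 were Dnah2, Spag5, the 3′ end of Rsph4a, and the peaks of Cfap69, Dnaaf4 and Dnah9 called on Steap2, Pygo1 and Shisa6. These 2 counts are near the shares of all overlapping peaks.

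**Figure D2:**
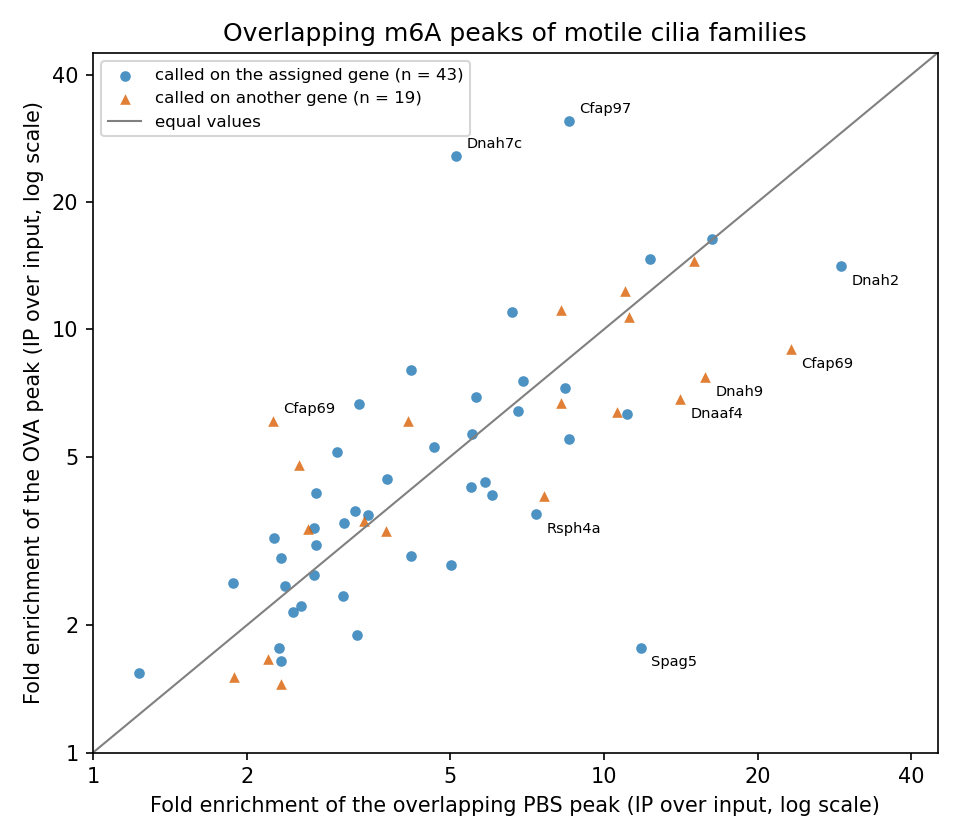
Fold enrichment of IP over input of each OVA member peak (y axis, log scale) against the PBS peak that overlaps it (x axis, log scale), 1 point per OVA peak; circles are peaks called on the assigned gene (n = 43), triangles peaks called on another gene (n = 19), and the line marks equal values. Points lie on both sides of the line, 31 above and 31 below, and the 9 named ones differ by at least 2 times.

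Other genes of the motile cilium, from a list outside the families, were compared in the same way. Of 81 such genes, 39 had an OVA peak and 36 a PBS peak, 7 of them an OVA peak only and 4 a PBS peak only, the order also seen over all gene names (11.5% and 7.92%). By the gene on which the peak was called, 44 and 43 had one, 5 and 4 in that list only. Foxj1, the main transcription factor of the multiciliated cell, had 3 assigned peaks in each list, 2 of them called on it, and the highest called value was 15.2 for OVA and 17.3 for PBS. Mcidas, which starts the multiciliated programme, had a highest value of 8.21 in the OVA and 40 in the PBS list. Gaps in the other direction included Wdr66, at 91.9 and 15.1, Spef2, at 54.9 and 24.3, Mycbpap, at 17.5 and 3.03, and Cetn4, at 14.4 and 3.45. Further ones were Ttll9 (15.9 and 5.06), Ccdc103 (32.9 and 12.2) and Hydin (17.7 and 7.53). Also higher for PBS were Lrrc34 (4.55 and 14.3) and Rfx3 (3.57 and 8.88), among others. Each value is the highest of its list, so the 2 of a gene need not come from the same site. Support differed, with a log10 p of -88.9 (OVA) and -52.8 (PBS) for Wdr66. It was weak at -4.01 and -2.11 for Cetn4, -5.01 and -2.69 for Mycbpap and -4.51 and -4 for Ttll9. Of the 39 genes of the list called in both, the highest called value was higher for OVA in 22 and for PBS in 17. Over all 12267 genes called in both these counts were 7393 and 4813. The log10 p of the 39 genes had the other order, lower for OVA in 15 and for PBS in 24. Gmnc, the relative of Mcidas upstream of it, had a peak in the OVA list only, at 19.5. Ccdc39 and Ccdc40, which set the repeat length of the axoneme, stood at 2.89 and 7.19 in the OVA and 3.33 and 5.62 in the PBS list. Of 43 genes of transport and of the primary cilium outside the families, 21 had a peak in the OVA and 25 in the PBS list. Of the 26 with a peak in either list, 1 was in the OVA list only and 5 in the PBS list only. Beside the 11.5% and 7.92% of all gene names, these genes had the reverse order, as the families did.

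Of 99 RefSeq genes of the families, 50 had an assigned peak and 49 had none, 12 of which had a peak called on them. The remaining ones included Dnah1, Dnaic1, Dnaaf6, Rsph1, Rsph9 and Cfap300, all known from ciliary dyskinesia. Cfap221, another such gene, had 1 peak called on it, in the PBS list under Tmem177, at 5.92. A missing peak does not mean that the RNA lacked m6A, since weakly expressed RNAs give few reads.

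A few members had a peak across the start of the gene, where RNA sequence could be read from RefSeq's promoter table (GRCm38), the last 50 bases of which are transcribed. The table held 41 of the 53 genes. Peaks called on the gene covered part of these bases for Cfap46, Dnaaf2, Dnaaf5, Dnah6, Dnaic2, Tekt1 and Tekt4. The m6A motif was searched on the transcript strand as A, G or T, then A or G, then AC, then A, C or T. It was in the 50 bases of 4 of these 7 genes and in those of 54.4% of all 32851 promoters, so a match is common. The windows below show 1 motif for each of the 4 genes in capitals, with the motif inside a peak and 5′ to 3′, to place it near the start of the RNA. Dnaaf2 is at chr12:69198380-69198397 on the minus strand, Dnah6 at chr6:73221603-73221627 on the minus strand, Dnaic2 at chr11:114727434-114727458 on the plus strand and Tekt4 at chr17:25471609-25471633 on the plus strand.
Dnaaf2: ttaccttcttGGACTggt
Dnah6: ttctgttcccAGACCaggtattgct
Dnaic2: gctggagctgGGACTggtcttgggc
Tekt4: accttgcttgGGACAgagtgaccag
Counted from the start used in that table, the central adenosine of the motif is base 45 in Dnaaf2, 17 in Dnah6, 28 in Dnaic2 and 32 in Tekt4. The RefSeq spans of these genes reach further upstream, so RNAs from other starts have other numbers. The Dnaaf2 and Dnah6 motifs lay under peaks of both lists, the Dnaic2 motif under an OVA peak and the Tekt4 motif under a PBS peak. A match is no proof of a methylated base, since a peak spans far more than the motif.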

How the data were processed

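The measurements are the peaks of 6 IP libraries over 6 input libraries, from lungs of 3 OVA and 3 PBS mice. The authors trimmed reads by FASTP, aligned them by HISAT2 against Ensembl's mouse genome, found peaks by exomePeak and assigned genes by ChIPseeker, and deposited 1 list per group. How replicates were combined is not given in the sources used here. Fold enrichment, a ratio of IP to input reads, and the score, a log10 of p or FDR, were deposited as the authors' caller gave them. As a check of the build, 114 of 115 peaks called on a member overlapped its RefSeq position on GRCm38.

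Peaks were selected by gene name, and overlaps were computed on exonic blocks with a minimum of 1 bp. Where several peaks overlapped, one called on the same gene was preferred, then the longest overlap. Shares have 95% Wilson intervals. No test between groups was made, since the lists hold no values of single mice. Named were, in each list, the 6 members with the highest fold enrichment at an FDR under 0.05 and the 6 with the lowest p without overlap, genes with at least 4 peaks, all genes in 1 list only, genes of ciliary dyskinesia and, chosen after their values were seen, others that complete a family and goblet cell markers and other cilia genes outside the families. Members and gene lists were chosen with earlier results of these data known. Alternatives changed the filter, the rule, the gene identifier and the overlap. One overlapping pair is not reported here. The overlap code was tested on simulated data. Python 3.11.15, pandas 2.3.3, numpy 2.4.6, scipy 1.17.1 and matplotlib 3.10.9 were used.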

Additional observations from a re-analysis of the deposited data

How the results depend on the processing

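Of 120 values under other settings, 102 stayed within 1.5 times the count or within the 95% interval of the share or median, and 18 moved. At a fold enrichment of at least 2, 5 genes were in the OVA list only. With protein-coding transcripts alone, 44 OVA peaks on 28 genes and 52 PBS peaks were left. By the gene on which the peak was called, 17 genes were in the PBS list only. With a further character required after the digit, 48 OVA peaks on 28 genes and 50 PBS peaks on 32 genes were left, 6 genes in the PBS list only. These follow from the smaller or other sets taken. With peaks called on the assigned gene alone, a setting chosen after seeing the data, 56.1% of OVA and 53.2% of PBS peaks lay in exons outside the UTRs, and 28.1% and 32.3% in the 3′ UTR. With an overlap of 50% of both peaks, 38.5% of the OVA and 41.9% of the PBS members had no counterpart (31.4% and 28.3% of all peaks), and with identical ends 91% and 91.9% (89.7% and 89.3%), since these rules are stricter. In every setting that changed the genes counted, more genes were in the PBS list only than in the OVA list only. No paired analysis was possible because the lists hold no values of single mice, and no result comes from a test. The depth behind a peak is unknown, so no fold enrichment has an interval.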
